A study of Mus musculus with 6 samples.

Results

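The 50 genes described here encode proteins that carry a cell through mitosis and divide its chromosomes between daughter cells. They were taken by symbol from the deposited count table, which holds 46603 genes after repeated identifiers were collapsed. All 50 were found, and all 50 were among the 15440 genes with enough counts to be tested. They fall into 9 roles, from the cyclins and their kinase to the proteins that close the cleavage furrow.

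RNA was sequenced from kidney cells captured on CD11B magnetic beads 3 days after both renal pedicles had been clamped for 28 minutes, a model of ischemia reperfusion-induced acute kidney injury (IRI-AKI). CD11B is an integrin chain of macrophages, monocytes and neutrophils. All mice were males aged 10 to 12 weeks, and each group had 3 libraries. PTEC DN RAR mice were PEPCK CRE+; Rosa26-LSL-RARaT403X: Cre under the PEPCK promoter, active in proximal tubular epithelial cells (PTECs), removes a stop cassette in front of a truncated, dominant-negative retinoic acid receptor alpha, an allele the study bred to homozygosity. Cre- controls were PEPCK CRE-; Rosa26-LSL-RARaT403X, so they carried the same allele without Cre and had the same injury. By design the allele is switched on in tubular cells and not in the CD11B+ cells that were sequenced, and no uninjured mice were in the table. Nothing in the labels says that a library was pooled from several mice.

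The libraries held 29318041 to 46517005 counts in genes. The label was checked with 8 CD11B+ myeloid markers, which were detected in every library at a summed 9674 to 10135 CPM (counts scaled to the size of the library) in controls and 7713 to 9209 CPM in PTEC DN RAR libraries. Transcripts of other cells differed between the genotypes too. The 12 proximal tubule markers summed to 648 to 870 CPM in controls and 2263 to 3538 CPM in PTEC DN RAR libraries, and mitochondrial genes took 5.03 to 8.77% and 10.38 to 12.08% of counts.

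Mitosis is driven by cyclin B bound to Cdk1. Condensins and topoisomerase II compact and untangle the chromosomes, kinetochores tie them to spindle microtubules, and the spindle checkpoint holds back the anaphase-promoting complex (APC/C) until every chromosome is attached. Most of these genes are transcribed late in the cell cycle, in G2 and M, and are shut off in resting cells, so bulk RNA of this set is widely used as a readout of proliferation. In the injured kidney both tubular cells and macrophages are known to proliferate in the first days. In a bulk sample, fewer cells in G2 and M, less RNA per cell and a changed mix of cells cannot be told apart.

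The mitotic set was lower in the CD11B+ fraction of PTEC DN RAR kidneys, in which markers of other cells differed as well. Of the 50 genes, 44 (88.0%) passed the test as lower and 0 as higher, where passing means an adjusted p under 0.05 in the quasi-likelihood test of edgeR, adjusted by Benjamini-Hochberg over all 15440 genes. Over all genes tested, 17.1% passed as lower and 23.6% as higher. All 50 log2 fold changes were negative, with a median of -0.86, which puts the typical gene at 55.2% of its control level. The median over all genes tested was 0.04. The range ran from -1.62 for Kif20b to -0.31 for Spc25, with standard errors of 0.13 to 0.28. In 44 of the 50 genes, every PTEC DN RAR library lay below every control library, which held for 24.2% of all genes tested. A fall to 50% or less of control was fitted for 14 of the 50 and for 2.5% of all genes.

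The size of the difference depended on how the libraries were scaled, but its sign did not. When the libraries were scaled to 25 genes shared by all leukocytes in place of the TMM factors of edgeR, the median over all genes moved from 0.04 to 0.26 and the median of the set from -0.86 to -0.64. The distance between them was -0.89 under both, which carries no information, since a scaling shifts all genes of a library alike. Under that scaling 30 of the 50 genes passed as lower, beside 4.73% of all genes lower and 33.3% higher. The 14 calls lost there were those of Birc5, Cdca3, Cenpa, Kif20a, Kif23, Kif2c, Kif4, Ncapd2, Nek2, Pbk, Plk1, Racgap1, Spc24 and Ube2c. None of the 750 fold changes fitted to the 50 genes under 15 alternative settings was positive, and 30 genes passed under all of them.

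The mean log2 CPM of the 50 genes was 4.74, 5.28 and 5.24 in Cre- controls 1 to 3 (5.08 ± 0.30, SD, n = 3) and 4.49, 3.91 and 4.28 in PTEC DN RAR libraries 1 to 3 (4.23 ± 0.30, SD, n = 3). The groups did not overlap, and the difference of -0.86 was larger than the SD within either group. Each group nevertheless held a library that stood apart in the same way for nearly every gene. Control 1 was the lowest control in 50 of 50 genes, and PTEC DN RAR 2 was the lowest library of its group in 45 and of all 6 libraries in 44. PTEC DN RAR 1 was the highest of its group in 43 genes. For the typical gene the highest control exceeded the lowest by 0.54 on the log2 scale, and the same spread among PTEC DN RAR libraries was 0.65. With control 1 left out 46 genes passed, and with PTEC DN RAR 1 left out 49. Without control 2, control 3, PTEC DN RAR 2 or PTEC DN RAR 3 the number was 33, 31, 34 and 36. Of all genes 17.7, 12.6, 14.3, 11.7, 12 and 15% passed as lower in these fits, in the same order. Those shares, with 17.1% in the full fit and 4.73% under the leukocyte scaling, also apply to the counts by role below. The calls lost in at least 1 of these 6 fits were those of Birc5, Cdca3, Kif20a, Kif23, Kif2c, Kif4, Ncapd2, Nek2, Pbk, Plk1, Racgap1, Spc24 and Ube2c, and the other 31 were kept in all 6.

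**Figure D1:**
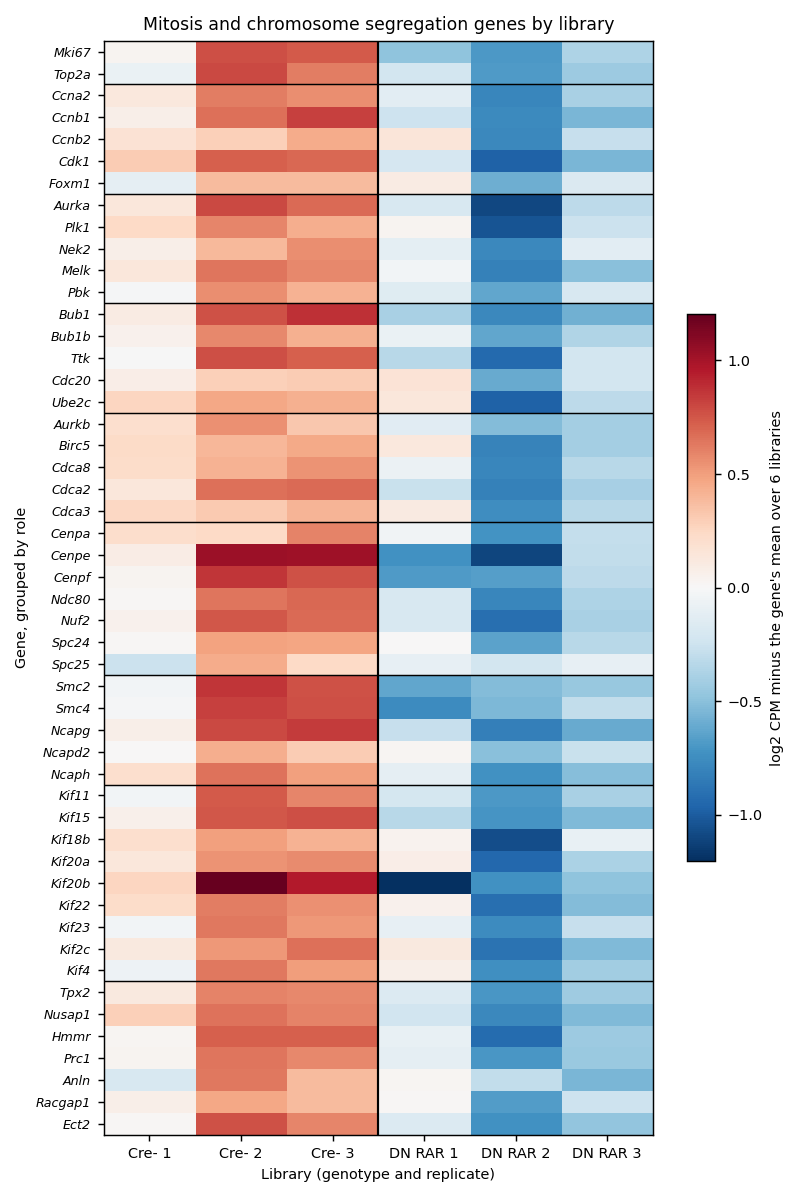
Heat map of the 50 mitosis genes (rows, grouped by role) in the 6 libraries (columns). Color gives log2 CPM minus the gene's own mean over the 6 libraries, red above and blue below; controls 2 and 3 are red for nearly all genes, control 1 is pale, and PTEC DN RAR 2 is the darkest blue in most rows.

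Many genes of this class are known to carry a CHR element near their start, the site at which the MuvB core brings the repressive DREAM complex in resting cells and B-MYB and FOXM1 in G2, and CCAAT boxes bound by NF-Y. RefSeq promoter windows of 250 bases before to 50 after the start (GRCm38.p6) were matched for 41 of the 50 genes. The CHR letters searched were TTTGAA and TTCGAA, on both strands, and the second of these reads the same on both. They were found in 33 of 41 windows (80.5%, 95% Wilson interval 66.0 to 89.8%), against 21.7% of 27025 genes in the promoter table and 16.6% of the 11060 tested genes that have a window. In the 150 bases before the start alone they were in 34.1% of the 41, against 11.2% of all genes and 7.89% of tested genes. CCAAT, on either strand, was found in 31 of 41 windows (75.6%), against 42.2% of tested genes, and both sets of letters were present in 28 of 41 (68.3%), against 6.84%. In 30 genes a CHR match began within 50 bases of the start, and in 29 a CCAAT match began within the 120 bases before it. A match of letters is a description of the window and not a bound site.

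Of the 6 genes with the lowest adjusted p among those with a CHR match, 3 have a match in the 150 bases before the start and ahead of the first annotated base of the gene, and their upstream sequence is shown so that the letters can be seen in place. Capitals mark CHR and CCAAT matches, and each run reads 5′ to 3′ in the direction of transcription. Cdk1 (chr10:69352939-69353062, minus strand) has a CHR match between a pair of reversed CCAAT boxes, Mki67 (chr7:135716380-135716529, minus strand) has a pair of CHR matches after a CCAAT box, and Smc2 (chr4:52439071-52439220, plus strand) has a reversed CHR match far upstream.
Cdk1: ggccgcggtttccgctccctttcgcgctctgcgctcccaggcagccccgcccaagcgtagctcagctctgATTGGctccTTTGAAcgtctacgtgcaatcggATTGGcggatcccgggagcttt
Mki67: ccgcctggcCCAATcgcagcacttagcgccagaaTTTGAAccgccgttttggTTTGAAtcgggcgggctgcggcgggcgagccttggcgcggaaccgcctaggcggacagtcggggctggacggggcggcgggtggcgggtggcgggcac
Smc2: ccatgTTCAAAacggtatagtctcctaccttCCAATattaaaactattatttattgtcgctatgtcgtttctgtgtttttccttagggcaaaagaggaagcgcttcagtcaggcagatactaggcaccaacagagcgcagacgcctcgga

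**Figure D2:**
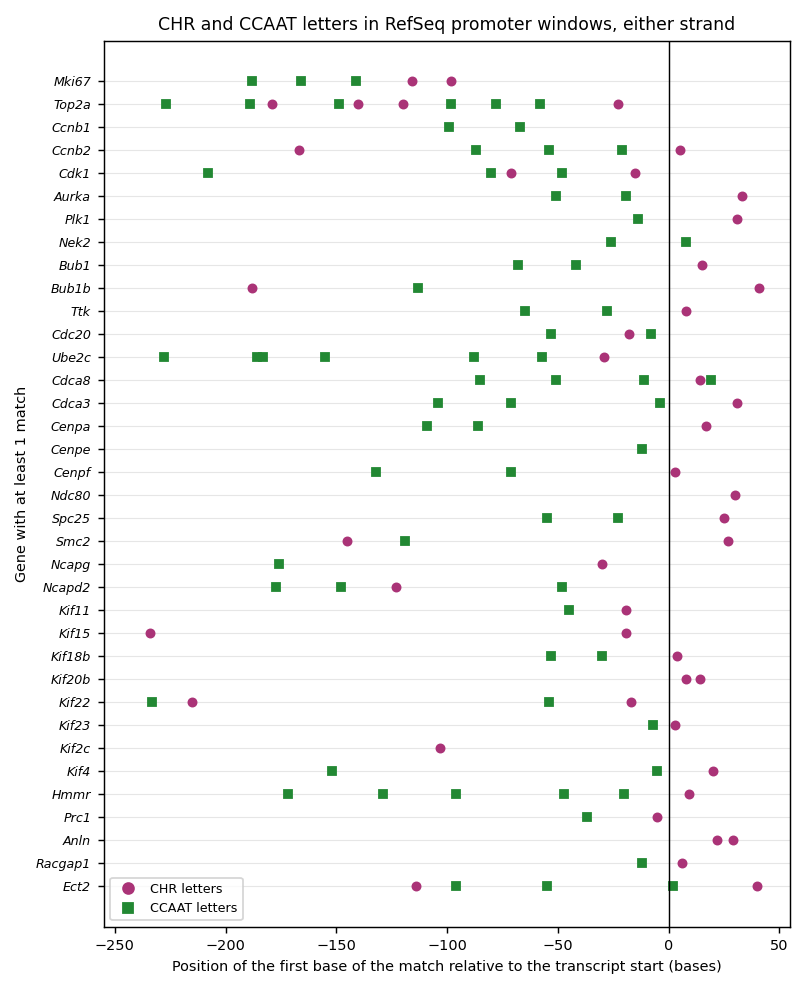
Positions of CHR letters (circles) and CCAAT letters (squares) in the RefSeq promoter windows of the 36 mitosis genes with at least 1 match, as the distance of the first base of each match from the transcript start in bases. CHR matches crowd within 50 bases of the start in 30 genes, and CCAAT matches lie mostly before it.

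The general markers of proliferation both fell. Mki67 encodes Ki-67, the surfactant of mitotic chromosomes and the usual histological marker of cycling cells. It stood at 141, 236 and 230 CPM in controls and 98.7, 85.8 and 107 CPM in PTEC DN RAR libraries (log2 fold change -1.06 ± 0.19, SE, edgeR adjusted p = 0.00318). The highest PTEC DN RAR library lay below the lowest control. Top2a, the topoisomerase that untangles replicated DNA, was at 173, 317 and 280 CPM in controls and 157, 114 and 135 CPM in PTEC DN RAR libraries (log2 fold change -0.92). Its groups came close, since control 1 at 173 CPM and PTEC DN RAR 1 at 157 CPM were neighbors.

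Among the cyclins and their regulators, 3 of 5 genes passed as lower. Cdk1 (ENSMUSG00000019942, chr10:69335146-69352938), the mitotic kinase itself, fell from 43.2, 57.5 and 56.4 CPM to 30.3, 17.8 and 23.9 CPM, a log2 fold change of -1.13 ± 0.19 (edgeR adjusted p = 0.00258). Ccna2, cyclin A2 of S and G2 phase, and Ccnb1, cyclin B1, fell to 55.2% and 48.1% of control. Ccnb2, the other B-type cyclin, was at 44.3, 48.0 and 53.6 CPM in controls and 43.4, 23.0 and 32.4 CPM in PTEC DN RAR libraries, and did not pass (edgeR adjusted p = 0.0528). Its groups were separated only by the gap between 43.4 and 44.3 CPM. Foxm1, the transcription factor that drives G2 and M genes, did not pass either. Control 1 had 27.9 CPM of Foxm1 and PTEC DN RAR 1 had 32.2 CPM, so the groups overlapped, and the log2 fold change was -0.43 ± 0.19 (edgeR adjusted p = 0.102). Without PTEC DN RAR 1, the highest library of its group for most of the set, all 5 passed.

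Levels of different genes were compared per kilobase of exon, rescaled to the same total in every library (TPM). On that scale Ccnb2 was at 93.0 TPM and Top2a at 84.2 TPM in controls, the highest of the 50 genes, and Ccnb1 was at 6.52 TPM. With the longest transcript as the length in place of all exons Ccnb2 was at 74.8 TPM and Top2a at 117 TPM, so their order turned. For Ccnb1 42.13% of 50-base stretches also occur in another gene, mainly its pseudogene Ccnb1-ps, and reads that align to more than 1 place were left out of the counts, so its level is uncertain. At least 10% of 50-base stretches were shared with another gene in 7 of the 50, and the others were Ccna2, Cdc20, Plk1, Ube2c, Kif20a and Kif4. For Cdc20 (11.58%) and Plk1 (10.88%) the stretches lie mainly in the copies Gm7856 and Plk-ps1, and for Ccna2 (15.91%) and Ube2c (17.83%) in the overlapping genes Exosc9 and Tnnc2.

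All 5 mitotic kinases fell. Aurka (Aurora A), which matures the centrosomes, and Plk1, which acts from mitotic entry to cytokinesis, had log2 fold changes of -1.04 and -0.78. Aurka was at 15.2, 23.9 and 22.1 CPM in controls and 12.1, 6.46 and 11.1 CPM in PTEC DN RAR libraries, so PTEC DN RAR 2 lay furthest below the controls. Nek2, which splits the centrosomes, and the kinases Melk and Pbk had values from -0.88 to -0.65. Pbk, Nek2 and Plk1 did not pass under the leukocyte scaling, which left 2 of 5 kinases. The count was also 2 without control 2 or control 3, and 3 without PTEC DN RAR 2.

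Of the genes of the spindle checkpoint and the APC/C that it restrains, 4 of 5 passed as lower. Bub1, a checkpoint kinase at the kinetochore, went from 19.9, 31.6 and 34.3 CPM to 14.2, 10.9 and 12.5 CPM, a log2 fold change of -1.19 ± 0.20 (edgeR adjusted p = 0.00276). Ttk (Mps1), the kinase that starts the checkpoint, and Bub1b (BubR1), part of the complex that inhibits the APC/C, fell to 49.9% and 61.1% of control. Cdc20, the activator of the APC/C that the checkpoint sequesters, was at 24.6, 28.3 and 28.7 CPM in controls and 26.0, 15.3 and 19.9 CPM in PTEC DN RAR libraries. Those groups overlapped, and the log2 fold change of -0.41 did not pass (edgeR adjusted p = 0.0966). Ube2c, the ubiquitin-conjugating enzyme of the APC/C, passed at -0.70 but lost the call in 5 of the 6 fits that left out a library and under the leukocyte scaling.

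The chromosomal passenger complex and the Cdca proteins passed in 5 of 5 genes. Aurkb (Aurora B), its kinase, had the smallest standard error of the set, with 34.5, 43.9 and 37.6 CPM in controls and 27.4, 20.9 and 22.6 CPM in PTEC DN RAR libraries (log2 fold change -0.71 ± 0.13, edgeR adjusted p = 0.00399). Its partners Birc5 (survivin) and Cdca8 (borealin) had log2 fold changes of -0.68 and -0.76. Cdca2, which brings a phosphatase to anaphase chromosomes, was at -0.99, and Cdca3, a trigger of mitotic entry, at -0.61. Birc5 and Cdca3 did not pass under the leukocyte scaling, and 3 of 5 genes passed without control 3, PTEC DN RAR 2 or PTEC DN RAR 3.

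At the centromere and kinetochore 6 of 7 genes passed as lower. Cenpe, the kinesin that walks chromosomes to the spindle equator, showed a log2 fold change of -1.44 ± 0.28 (edgeR adjusted p = 0.00463). It was at 17.4, 33.5 and 33.2 CPM in controls and 9.87, 7.61 and 13.4 CPM in PTEC DN RAR libraries. Cenpf, a large protein of the outer kinetochore, and Cenpa, the histone H3 variant that marks centromeres, were at -1.14 and -0.68. The 4 genes of the Ndc80 complex, which grips the microtubule, did not all pass. Ndc80, Nuf2 and Spc24 fell to 53.3%, 50.2% and 64.4% of control. Spc25 had the smallest difference of all 50 genes, at 10.2, 16.7 and 14.4 CPM in controls and 11.4, 10.5 and 11.4 CPM in PTEC DN RAR libraries (log2 fold change -0.31 ± 0.18, edgeR adjusted p = 0.20). Its groups overlapped through control 1, the lowest of all 6 libraries for this gene. Cenpa and Spc24 did not pass under the leukocyte scaling (edgeR adjusted p = 0.0715 and 0.135), which left 4 of 7 genes.

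Condensin, the ring complex that folds chromatin into compact chromosomes, had 5 of 5 genes lower. Smc2 and Smc4, the ATPase core shared by condensin I and II, had log2 fold changes of -1.12 ± 0.21 and -1.09 ± 0.21 (edgeR adjusted p = 0.0037 and 0.0048). Smc2 was at 39.2, 72.9 and 68.3 CPM in controls and 26.0, 27.9 and 29.1 CPM in PTEC DN RAR libraries. Smc4 was at 56.7, 101 and 97.5 CPM in controls and 33.8, 39.3 and 46.6 CPM in PTEC DN RAR libraries. For both genes PTEC DN RAR 1, not 2, was the lowest library, against the order seen for most of the set. The condensin I subunits Ncapg, Ncaph and Ncapd2 had log2 fold changes of -1.16, -0.89 and -0.50. Ncapd2 passed (edgeR adjusted p = 0.0286) although PTEC DN RAR 1, at 101 CPM, reached above the lowest control, and it did not pass under the leukocyte scaling.

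The kinesins, motors that move and shape the spindle, passed in 8 of 9 genes. Kif20b (ENSMUSG00000024795, chr19:34922361-34975745), a motor of the late cytokinetic bridge, had the lowest value of the set, a log2 fold change of -1.62 ± 0.27 (edgeR adjusted p = 0.0026) or 32.5% of control. It was also among the least abundant per kilobase, at 4.14 TPM in controls. Its levels were 6.43, 12.4 and 10.4 CPM in controls and 2.34, 3.25 and 3.86 CPM in PTEC DN RAR libraries, with 98 counts in the lowest library. Kif15 and Kif11 (Eg5), the motors that push the spindle poles apart, were at -1.08 and -0.89. Kif22, which moves chromosome arms, Kif2c (MCAK), which takes microtubules apart at the centromere, and Kif20a and Kif23, which serve the central spindle, were between -0.88 and -0.75. Kif4, a chromosome-bound motor, passed at -0.71 with overlapping groups, since control 1 was at 19.1 CPM and PTEC DN RAR 1 at 20.9 CPM. Kif18b, a regulator of astral microtubules, did not pass (log2 fold change -0.67 ± 0.26, edgeR adjusted p = 0.0671) although its groups did not overlap, with controls at 12.6 to 15.4 CPM and PTEC DN RAR libraries at 5.23 to 11.3 CPM. Under the leukocyte scaling 4 of the 9 kinesins passed. The count was 5 without control 2 or PTEC DN RAR 3 and 4 without control 3.

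Reads of 6 of the 50 genes could be shared with a gene that overlaps them on the opposite strand, since at least 10% of their exonic bases lie in its exons and the strand setting of the counting was not given in the sources used here. Kif20a overlaps Cdc23 (29.3% of exonic bases), Ube2c overlaps Tnnc2 (22.77%), and Kif4 overlaps Pdzd11 (15.09%). For Ncapg and Lcorl the share was 13.36%, for Ccna2 and Exosc9 12.49%, and for Prc1 and Rccd1 11.08%. The values given for these 6 genes are uncertain for that reason.

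Among genes of spindle assembly and cytokinesis, 6 of 7 passed as lower. Nusap1, which bundles spindle microtubules, had the lowest adjusted p of the 50 genes (edgeR adjusted p = 0.00165, log2 fold change -1.01 ± 0.15). It was at 39.0, 50.4 and 48.4 CPM in controls and 27.3, 18.7 and 22.2 CPM in PTEC DN RAR libraries, which did not overlap. Tpx2 and Hmmr, which organize microtubules around chromosomes and poles, had log2 fold changes of -0.86 and -0.97. Prc1, the crosslinker of the central spindle, Racgap1, the partner of Kif23 in centralspindlin, and Ect2, the exchange factor that starts furrowing, were at -0.84, -0.59 and -0.93, and of these Racgap1 did not pass under the leukocyte scaling. Anln (anillin), the scaffold of the cleavage furrow, was at 31.7, 56.4 and 47.1 CPM in controls and 36.7, 29.4 and 24.8 CPM in PTEC DN RAR libraries. Those groups overlapped, and Anln did not pass (log2 fold change -0.57 ± 0.21, edgeR adjusted p = 0.0595).

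**Figure D3:**
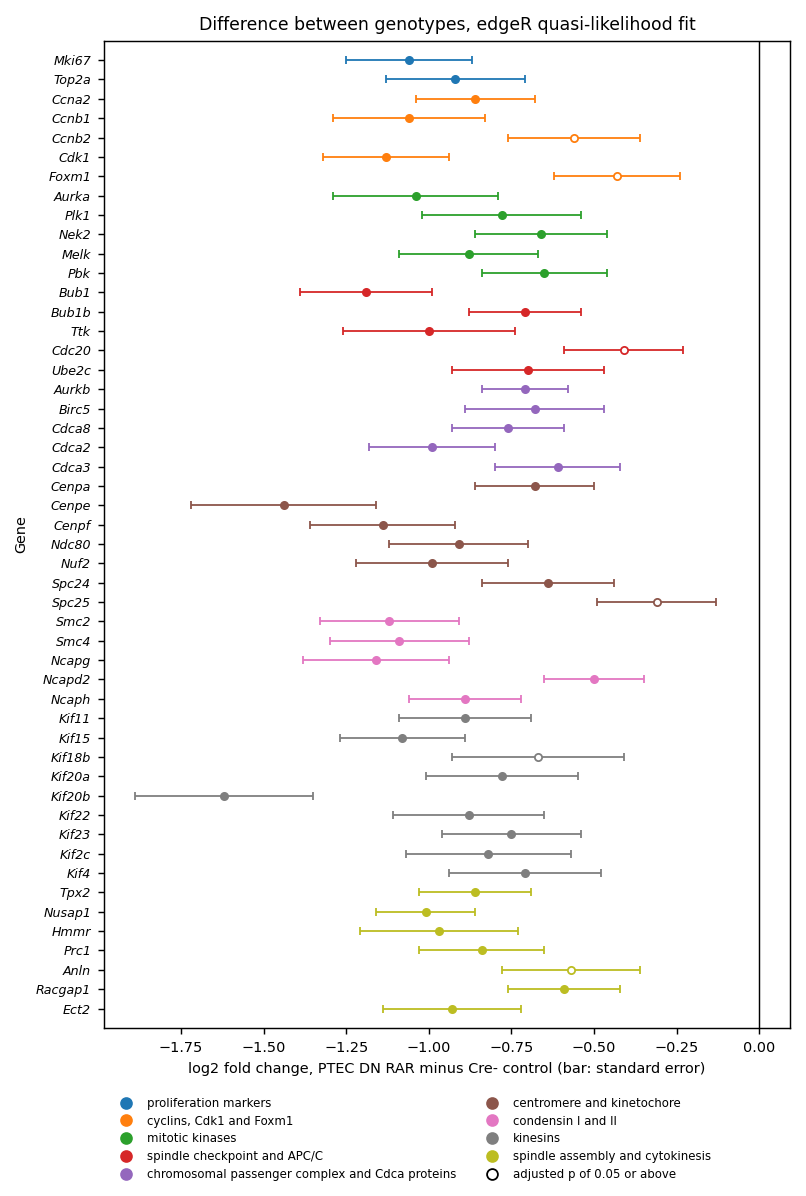
Log2 fold change of each of the 50 mitosis genes, PTEC DN RAR minus Cre- control, with its standard error from edgeR (bars), colored by role. Filled points passed at an adjusted p under 0.05 and open points did not; all 50 lie left of 0, from -1.62 (Kif20b) to -0.31 (Spc25), and the 6 open points are Ccnb2, Foxm1, Cdc20, Spc25, Kif18b and Anln.

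The size of the fall varied with the base composition of the transcript. Across the 50 genes, the log2 fold change rose with the GC content of the longest transcript (Spearman's rho 0.64, Pearson's r 0.61) and fell with its log2 length (rho -0.46, r -0.51). The 50 points come from the same 6 libraries. Over 15386 genes tested the same rho was 0.25 for GC content and 0.02 for length. In the 25 mitosis genes at or below 46.45% GC the median log2 fold change was -0.97, beside -0.13 in all tested genes of that GC range. In the 25 genes above it the median was -0.71, beside 0.06. The genes poorest in GC were Ncapg (34.8%), Kif20b (39.4%), Smc2 (39.7%), Smc4 (40.2%) and Ect2 (40.2%). They had log2 fold changes of -1.16, -1.62, -1.12, -1.09 and -0.93. The 4 richest, Plk1 (56.0%), Cdc20 (55.6%), Ube2c (55.5%) and Kif18b (55.2%), were at -0.78, -0.41, -0.70 and -0.67, so Plk1, the richest of all, lay near the median of the set and passed. Spc25, at 42.6% GC, had the smallest difference. Once the trend of each library with length and GC content was removed, an alternative added after these values were seen, 49 of the 50 genes passed as lower, beside 28.4% of all genes lower and 20.3% higher. Spc25 was the gene that did not pass. The median of the set stayed at -0.86, but its distance from the median of all genes shrank from -0.89 to -0.78.

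**Figure D4:**
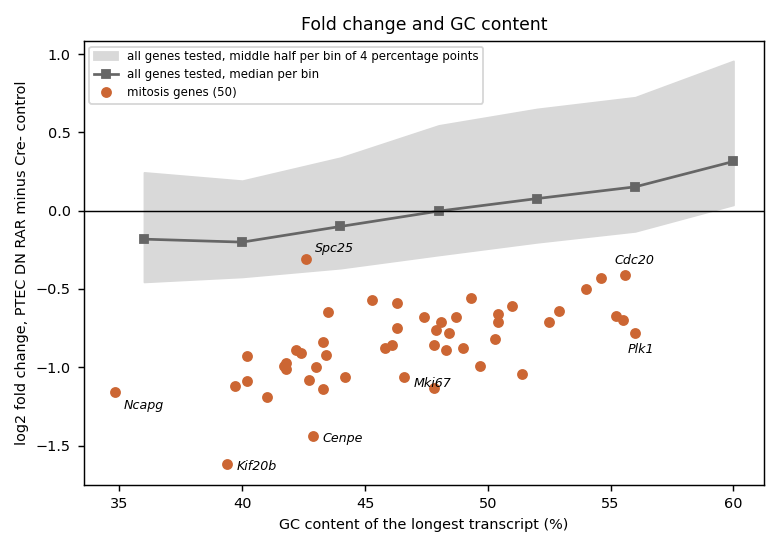
Log2 fold change, PTEC DN RAR minus Cre- control, against the GC content of the longest transcript for the 50 mitosis genes (points), over the median and the middle 50% of all genes tested in bins of GC content. All 50 points lie below the medians of all genes. The genes poorest in GC (34.8 to 40.2%), at -1.62 to -0.93, lie lower than the 4 richest, at -0.78 to -0.41.

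The wider cell cycle was lower to different extents. Of 67 other mitosis genes 44 (65.7%) passed as lower and 0 as higher, with a median log2 fold change of -0.70. Over all genes 17.1% passed as lower and 23.6% as higher. No gene of that list was higher at an unadjusted p under 0.05, and 0 passed as higher with DESeq2 or limma-voom. Under the leukocyte scaling 23 (34.3%) passed as lower (median -0.48), beside 4.73% of all genes. Without control 2, control 3 or PTEC DN RAR 2 the number was 29, 28 and 29, beside 14.3, 11.7 and 12% of all genes. Ncapg2, a subunit of condensin II, was the clearest of them, at 80.3, 85.2 and 96.0 CPM in controls and 35.1, 31.9 and 38.0 CPM in PTEC DN RAR libraries (log2 fold change -1.32 ± 0.10, edgeR adjusted p = 0.000181). Sgo2a, which guards centromeric cohesion, and Spdl1, which loads dynein on kinetochores, were at -1.25 and -1.15. Of 46 genes of DNA replication and S phase 41 (89.1%) passed as lower and 0 as higher (median -0.76). Under the leukocyte scaling 27 (58.7%) of them passed as lower (median -0.54). The number lower was 32, 30, 29 and 33 without control 2, control 3, PTEC DN RAR 2 or PTEC DN RAR 3 (11.7 to 15% of all genes). Again 0 were higher at an unadjusted p under 0.05, with DESeq2 or with limma-voom. These included the replicative helicase subunit Mcm2 (-0.74), the sliding clamp Pcna (-0.60), the origin factors Cdc6 (-1.12) and Orc1 (-1.37) and the chromatin remodeler Hells (-1.42). Orc1 did not pass without control 2, control 3 or PTEC DN RAR 2, nor with the replicate block.

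Genes upstream of mitosis were lower in part. Of 22 genes of the DREAM, MuvB, E2F and NF-Y factors 11 passed as lower and 1 as higher (median -0.28), and under the leukocyte scaling 2 passed as lower and 4 as higher (median -0.06). The share higher, 4.55% and 18.2%, was below that of all genes under the same scalings, 23.6% and 33.3%. The higher calls thus set nothing apart in this list. The share lower was 50% and 9.09%, beside 17.1% and 4.73% of all genes. The median minus that of all genes was -0.32 under both, a distance that a change of scaling cannot alter. Mybl2, which encodes B-MYB, had a log2 fold change of -0.77, E2f1 -0.51, E2f7 -0.69 and E2f8 -0.72. All but E2f8 missed the threshold under the leukocyte scaling. The gene that passed as higher, Tfdp2, a dimerization partner of the E2F factors named here after its value was seen, was at 0.30, and did not pass when any of the 6 libraries was left out. Of 11 G1 cyclins and kinases 5 (45.5%) passed as lower and 0 as higher (median -0.40), beside 17.1% and 23.6% of all genes. In that list 1 gene was higher at an unadjusted p under 0.05, 0 with DESeq2 and 0 with limma-voom. In 3 alternatives, the leukocyte scaling, the replicate block and the fit without control 2, 1 gene, Ccnd1, passed as higher. The number lower was 2 (18.2%) under the leukocyte scaling, 8 with DESeq2 and 8 without control 1, beside 4.73, 21.2 and 17.7% of all genes. The cyclins E, which carry cells into S phase, fell to the greatest extent there, Ccne1 at -1.15 and Ccne2 at -1.55, and Myc, which did not pass under the leukocyte scaling, was at -0.57. Ccnd1, cyclin D1, was at 160, 266 and 212 CPM in controls and 241, 318 and 294 CPM in PTEC DN RAR libraries and did not pass (log2 fold change 0.42 ± 0.18, edgeR adjusted p = 0.0936). Those groups overlapped. Under the leukocyte scaling its value was 0.65 and passed (edgeR adjusted p = 0.0216).

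Of 16 CDK inhibitors and antiproliferative genes 7 (43.8%) passed as lower and 3 (18.8%) as higher (median -0.20), beside 17.1% and 23.6% of all genes. Under the leukocyte scaling 3 (18.8%) were lower and 4 (25%) higher, beside 4.73% and 33.3% of all genes. The median was then 0.03. Its distance from the median of all genes, which a change of scaling cannot alter, was -0.23 under both scalings. With TMM scaling 4 passed as lower without control 3 or without PTEC DN RAR 2, beside 11.7 and 12% of all genes. Cdkn1a, the p53 target that encodes the p21 inhibitor, fell from 174, 154 and 171 CPM to 72.5, 66.9 and 95.7 CPM, a log2 fold change of -1.08 ± 0.14 (edgeR adjusted p = 0.000728). Cdkn1c, which encodes p57, rose from 4.05, 4.80 and 3.71 CPM to 8.94, 10.9 and 10.4 CPM (log2 fold change 1.27). Cdkn2a, at 0.359 to 0.470 CPM in controls and 0.593 to 1.17 CPM in PTEC DN RAR libraries, was low in both groups, and passed at 1.10. That call was kept in 1 of the 6 fits that left out a library, the one without PTEC DN RAR 3, and in 5 of 15 alternatives, and was lost with DESeq2 and limma-voom. Complexes that act in mitosis but are also needed by resting cells showed smaller values. The core APC/C subunits passed as lower in 6 of 15 genes (40%, median -0.19), among them Anapc10 (-0.71), Cdc27 (-0.57) and Anapc15 (-0.37). Under the leukocyte scaling 1 (6.67%) was lower and 1 (6.67%) higher, beside 4.73% and 33.3% of all genes, and the median was 0.04. Its distance from all genes, -0.22 beside -0.23 with TMM, hardly depends on the scaling by construction. With TMM scaling 4 were lower without PTEC DN RAR 2 (12% of all genes). The cohesin genes passed as lower in 4 of 11 (36.4%, median -0.38), among them Smc3 (-0.80), Wapl (-0.48) and Smc1a (-0.42). The cohesin count ranged from 1 without control 3 or PTEC DN RAR 1 to 9 without control 1, and was 2 without control 2. In these fits 11.7 to 17.7% of all genes were lower. Under the leukocyte scaling the cohesin count was 1 (9.09%, median -0.16), beside 4.73% of all genes. Neither list had a gene that passed as higher with DESeq2, limma-voom or the edgeR fit reported here, and 1 APC/C gene and 0 cohesin genes were higher at an unadjusted p under 0.05. In 6 other edgeR fits 1 APC/C gene passed as higher. Anapc15, Smc1a and Wapl did not pass under the leukocyte scaling or without control 3, and Cdc27 did not under the leukocyte scaling.

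Several lists of markers of other cells moved alongside the mitotic set, and their counts are to be read beside the 17.1% of all genes that passed as lower and the 23.6% that passed as higher. Of 10 infiltrating monocyte markers 8 passed as lower and 0 as higher, and their mean log2 CPM was 7.93, 7.89 and 7.93 in controls and 6.55, 6.69 and 6.90 in PTEC DN RAR libraries. That list was flat among controls, whereas the mitotic set ranged there from 4.74 to 5.28. Of 10 neutrophil markers 6 passed as lower, with means of 4.14, 4.68 and 5.03 in controls and 3.89, 3.59 and 3.40 in PTEC DN RAR libraries. The 10 resident macrophage markers lay at 10.24, 10.17 and 10.22 in controls and 10.41, 10.48 and 10.10 in PTEC DN RAR libraries, and overlapped. Of these 2 passed as lower and 1 as higher, and under the leukocyte scaling 1 and 6 (median log2 fold change 0.39, beside 0.26 over all genes). With TMM scaling the shares, 20% and 10%, lay near or under those of all genes, and without PTEC DN RAR 3 the counts were 1 and 2. The 25 leukocyte reference genes differed by -0.22, and 10 of them passed as lower, 6 without control 3 or PTEC DN RAR 2.

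All 12 proximal tubule markers, all 6 of the thick ascending limb and all 8 of endothelium passed as higher, with differences in mean log2 CPM of 1.95, 2.28 and 1.26. Of 7 distal tubule and collecting duct, 5 podocyte and 7 stroma markers 5, 4 and 5 passed as higher. The stroma count was 0 without control 3, 1 without control 1 or PTEC DN RAR 2, 2 without control 2 or PTEC DN RAR 1, 2 with limma-voom and 1 without the GC and length trend. Of 8 injured proximal tubule markers 2 (25%) passed as lower and 1 (12.5%) as higher, and of 8 dendritic cell markers 1 (12.5%) and 3 (37.5%). These small lists lay near the shares of all genes. The injured tubule list had 1 lower without control 1, control 3, PTEC DN RAR 1 or PTEC DN RAR 2, and 0 higher without control 3 or PTEC DN RAR 2. The dendritic list had 2 higher without control 3. Markers of NK cells, T cells and B cells were low, with summed levels of at most 109 CPM in any library, and 1, 0 and 0 of their tested genes passed as lower and 0, 2 and 1 as higher. The number of B cell markers higher ranged from 0 without control 3, PTEC DN RAR 1 or PTEC DN RAR 2 to 6 without PTEC DN RAR 3. T cell markers higher numbered 4 without PTEC DN RAR 3, and NK cell markers lower 2 without PTEC DN RAR 1. Eomes and Blk had 0 counts in at least 1 library, and no marker of the monocyte, neutrophil, macrophage or tubular lists did. The part of these cells in the fall of the mitosis genes was not tested.

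**Figure D5:**
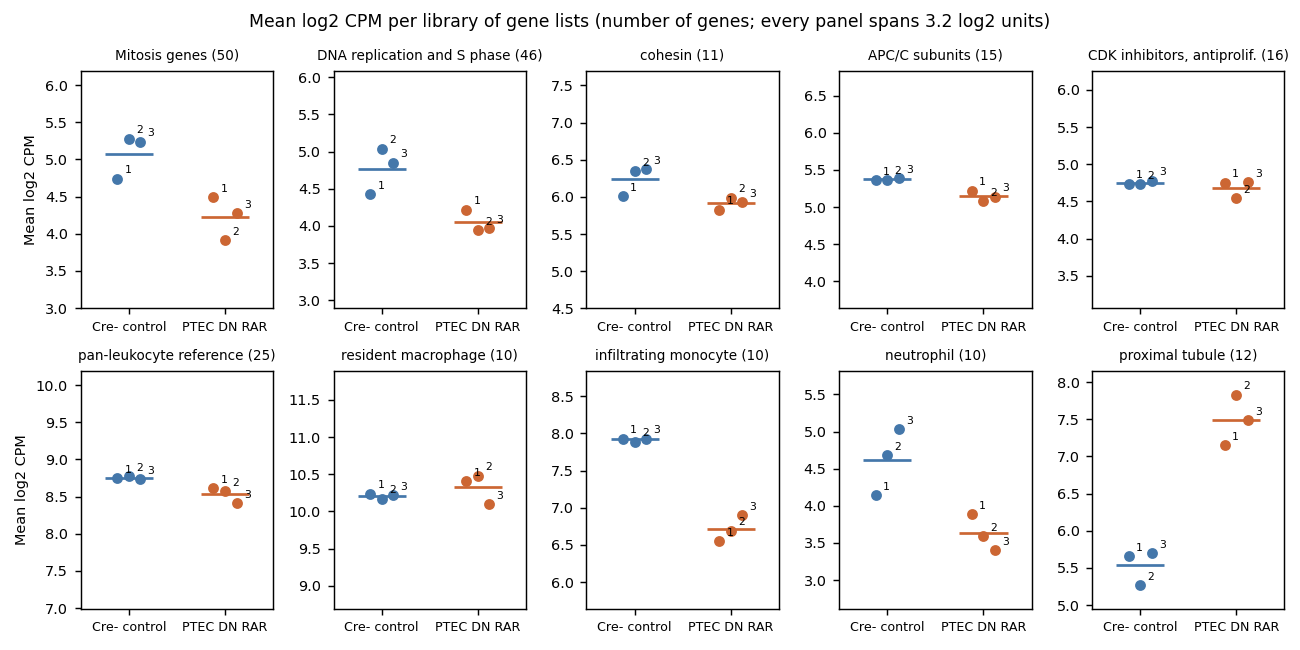
Mean log2 CPM of 10 gene lists in each library (points, with the replicate number beside them) of Cre- controls (blue) and PTEC DN RAR (orange), with the group mean as a line. Every panel spans the same range of log2 units. The mitosis genes and the S phase genes fall while their controls spread, the infiltrating monocyte list falls from controls that lie together, and the proximal tubule list rises.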

How the data were processed

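The authors isolated CD11B+ cells with magnetic beads from digested kidneys, prepared polyA-selected libraries and deposited raw read counts for 6 libraries in a single table, with 1 line per Ensembl identifier. The submitters' processing notes name STAR 2.5.0a, HTSeq 0.6.1, edgeR, limma and the GRCm38 build. The annotation release and the strand setting of the counting are not given in the sources used here. Of all alignments, 42.93 to 47.75% per library were recorded as not unique and are not in the counts. The table held 46612 gene lines, of which 9 repeated an identifier and were collapsed.

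In R 4.3.3, edgeR 4.0.16 was used for the filter on low counts (filterByExpr), TMM scaling and the quasi-likelihood test (glmQLFit, glmQLFTest), with genotype as the only term and Benjamini-Hochberg adjustment over 15440 genes. CPM values are scaled by TMM and mean log2 CPM values use a prior count of 2. Levels per kilobase used the exon union of GENCODE M21, in which 46005 identifiers and all 50 mitosis genes were found. Alternatives used limma 3.58.1 and DESeq2 1.42.0, other scalings and filters, the replicate number as a block, and each library left out in turn. The scripts were tested on simulated data. Depth gave 3 counts a value of 0.0636 to 0.101 CPM, so all 50 genes were far above the floor, and intervals of shares cover counting error only. Nothing says that libraries of a group came from separate litters or days, so p values measure the spread between these samples. No sequencing batch was given. Symbols are those of the table, apart from Sgo2a, listed there as Sgol2a.

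The mitosis genes and all other lists were chosen with earlier results of these data known, and several mitosis genes are among those the study lists from these libraries, so no list here is independent evidence of its direction. All 50 were named. Of each other cell cycle list, the 3 genes with the greatest change among those that passed were named, and the rule also names Mybl2, E2f1, Cdkn1a, Ccnd1, Ccne1, Ccne2, Pcna and Mcm2, some of which fall under both parts. Tfdp2 was named after its value was seen. Promoters were printed for at most 6 genes, those with the lowest adjusted p and a CHR match, where the match lay before the gene's first annotated base. A further marker list is not reported here.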

Additional observations from a re-analysis of the deposited data

How the results depend on the processing

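The fall of the mitosis genes kept its direction under 15 alternatives, with 30 to 49 genes passing as lower. Of all genes 4.73% (leukocyte scaling) to 28.4% (GC and length trend removed) passed as lower in them. Leaving out 1 library gave 31 to 49 genes (31 without control 3, 33 without control 2, 34 without PTEC DN RAR 2), beside 11.7 to 17.7% of all genes. The difference in the mean log2 CPM of the mitosis genes was then -1.03 to -0.70. DESeq2 called 49, limma-voom 45 and RLE size factors 46, beside 21.2, 16.8 and 20% of all genes lower. With no filter on low counts that share was 10.8%, and with the replicate block 16.9%. The replicate numbers did not pair the samples (correlations of deviations -0.015, 0.211 and 0.029 for numbers 1 to 3), and the fit with a replicate block called 40. Under the leukocyte scaling 2 mitotic kinases, 3 passenger complex and Cdca genes, 4 centromere and kinetochore genes, 4 kinesins, 23 other mitosis genes, 27 S phase genes, 2 G1 genes, 3 CDK inhibitors, 1 APC/C and 1 cohesin gene passed as lower, and of the DREAM, MuvB, E2F and NF-Y list 2 passed as lower and 4 as higher. All 5 genes of the cyclins, Cdk1 and Foxm1 passed with no filter on low counts, with DESeq2 and without the GC and length trend. Of that transcription factor list 0 passed as higher with no filter. G1 genes numbered 8 with DESeq2 and 10 without the trend, and APC/C genes 10 without the trend. Cohesin genes numbered 8 with RLE factors or the replicate block and 9 with no filter, with DESeq2 or without the trend. The cause was not tested. Leave-one-out ranges were 3 to 5 for the cyclins, Cdk1 and Foxm1, 2 to 5 for mitotic kinases, 3 to 5 for the passenger complex and Cdca genes, 4 to 9 for kinesins, 28 to 48 for other mitosis genes, 4 to 8 for G1 genes, 4 to 6 for CDK inhibitors, 1 to 9 for cohesin, and 0 to 0 for transcription factors called higher. With the longest transcript as the length, Ccnb2, Top2a and Ccnb1 in controls were at 74.8, 117 and 8.86 TPM in place of 93.0, 84.2 and 6.52, and CHR letters were in 34.1% of windows of 150 bases before the start, in place of 80.5% (7.89 and 16.6% of tested genes).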
